A study of Mus musculus with 2 samples.

Results

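The chemokines and chemokine receptors are described here in the prefrontal cortex (PFC) of mice, in a control (C) group and in a group exposed to chronic mild stress (CMS). Members were chosen by symbol alone: the Ccl, Cxcl, Cx3cl and Xcl ligands and the Ccr, Cxcr and Xcr receptors among the mouse genes of RefSeq. There were 61 such symbols, and 51 of them, 34 ligands and 17 receptors, had a spot on the arrays, out of 37069 gene names in all. The 10 symbols without a named spot were Ccl16-ps, Ccl19-ps1, Ccl19-ps2, Ccl19-ps3, Ccl21a, Ccl21b, Ccl21c, Ccl21d, Ccl27b and Cxcl11, and they were not analysed here.

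Both groups were male C57Bl/6 N sea mice, 9 to 10 weeks old at the start. The CMS group was housed singly and went through 4 weeks of changing mild stressors, whereas the C group received ordinary care in shared cages, so housing and stressors cannot be told apart. Total RNA of each group was pooled and hybridized to 1 one-color Agilent array. The series text gives 7 mice for each pool and the methods give 10 mice per group. With 1 array per group there was no replicate, no measure of how mice differ and no test, and every difference below compares 1 pool with 1 pool.

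Chemokines are small secreted proteins that bind G protein-coupled receptors and steer the movement of leukocytes along their gradients. Inflammatory chemokines such as Ccl2, Ccl5 and Cxcl10 are induced by cytokines through NF-κB and interferon-regulated factors, whereas homeostatic chemokines such as Cxcl12 are made in resting tissue. In the brain, neurons make fractalkine (Cx3cl1), microglia carry its receptor Cx3cr1, and Cxcl12 guides the migration of neurons and their precursors.

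C and CMS below stand for the pools of the C and CMS groups. Values are the scanner software's background-subtracted intensities after scaling both arrays to the same mean, 2500. A probe was taken as measured where at least 0.5 of its spots were well above background, and the lowest such signal was 17.8 in C and 17.6 in CMS. Errors after ± are the scanner software's own error of the signal within an array and carry no information on the spread between mice. Where only one of the arrays was well above background, the dim side was set to the higher of its own signal and that lowest signal. If the lowest signal was used, the ratio is a lower bound, written as "at least" or called a bound. If its own signal was used, the ratio is that of the signals and is not a bound. A ratio above 2 or below 0.5 was counted as a difference, the limit that the study used. Probes differ in brightness for reasons other than RNA level, so signals are compared between the groups for the same probe and never between genes. The summed signal of a list is weighted towards its brightest probes.

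Of the 51 genes, 25 were well above background on both arrays, 1 (Xcl1) in the C pool only and 2 (Ccl3 and Ccl8) in the CMS pool only, and 23 on neither array. The share measured on either array was 54.9%, against 73.1% of all gene names and 78.7% of names with a RefSeq symbol. It was 64.7% of the ligands and 35.3% of the receptors. In such bulk RNA, fewer cells of a type and less RNA per cell cannot be told apart.

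Among the 28 genes with a ratio, 1 ligand (Ccl28) exceeded 2-fold in the CMS pool and 1 ligand (Xcl1) was below 0.5 times. Across all 27100 gene names with a ratio, 1.96% were more than 2-fold higher and 0.565% were below 0.5 times, and among the 7603 names with a mean signal below 100, where both Ccl28 and Xcl1 lay, the shares were 4.58% and 1.80%. Of the 18 chemokine and receptor genes in that range, 1 gene in each direction is too few to be set apart from these shares. A gene measured on only 1 array has a ratio because it was high there, so medians are given over genes measured on both arrays. Over 25 such chemokine and receptor genes the median log2 ratio, CMS over C, was 0.06 and that of all gene names was -0.03, and 16 of the 25 lay above the latter. Without scaling the median of the 25 genes was -0.11, and that of all 27100 gene names with a ratio was -0.20. Unscaled values below are thus to be read against -0.20 rather than 0.

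**Figure D1:**
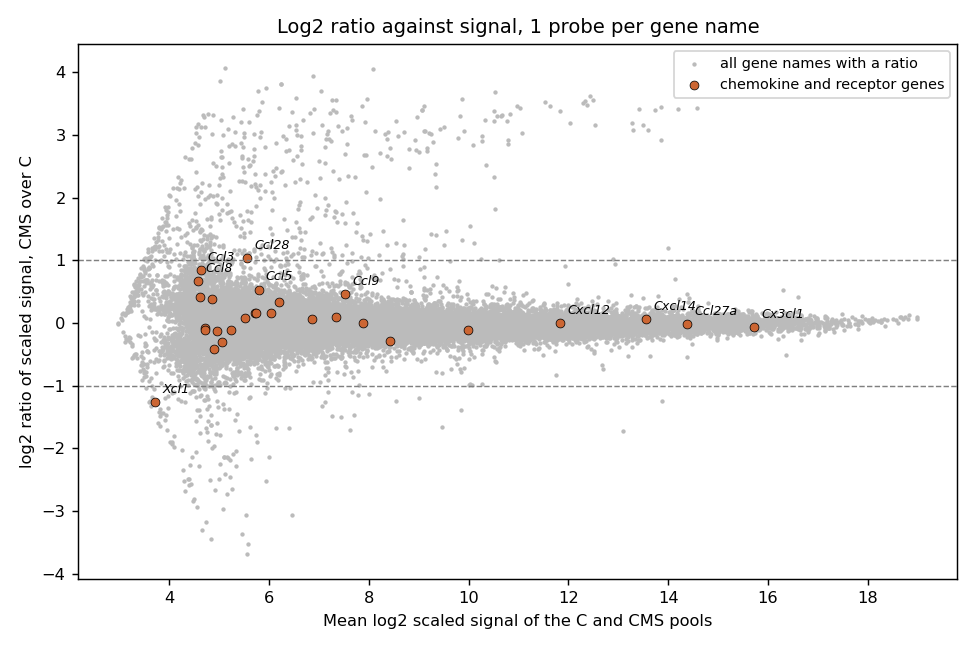
Log2 ratio of scaled signal, CMS over C, against the mean log2 scaled signal of both pools, with 1 probe per gene name (grey, all 27100 gene names with a ratio; orange, the 28 chemokine and receptor genes). Dashed lines mark 2-fold; Ccl28 and Xcl1 are the orange points outside them, both at low signal where the grey cloud is widest, and the ligands with bright probes, Cxcl12, Cxcl14, Ccl27a and Cx3cl1 sit near 0.

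The promoter sequences of 4 ligands are shown for orientation: those of the ligands beyond 2-fold (Xcl1 and Ccl28), of fractalkine (Cx3cl1), the best known neuronal chemokine, and of Cxcl10, a classic interferon target. Each is the 250 bases before the RefSeq start of the gene in GRCm38.p6, written 5′ to 3′ on the strand of the gene. The windows are chr1:164935523-164935772 on the minus strand for Xcl1, chr13:119623569-119623818 on the plus strand for Ccl28, chr8:94771930-94772179 on the plus strand for Cx3cl1 and chr5:92348890-92349139 on the minus strand for Cxcl10. Capitals mark matches to a TATA box (TATAAA), a GC box (GGGCGG), an interferon-response element (GAAA, any 2 bases, then GAAA) or the NF-kB consensus, each searched on both strands.
Xcl1: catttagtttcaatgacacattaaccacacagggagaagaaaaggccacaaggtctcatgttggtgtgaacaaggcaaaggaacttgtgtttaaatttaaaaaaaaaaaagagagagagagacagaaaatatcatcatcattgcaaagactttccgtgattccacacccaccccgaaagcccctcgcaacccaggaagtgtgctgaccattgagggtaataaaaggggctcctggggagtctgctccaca
Ccl28: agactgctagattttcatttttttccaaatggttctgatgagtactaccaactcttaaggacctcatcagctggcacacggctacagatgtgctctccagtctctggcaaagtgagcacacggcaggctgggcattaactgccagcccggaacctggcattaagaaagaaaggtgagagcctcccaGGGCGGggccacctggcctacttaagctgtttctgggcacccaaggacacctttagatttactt
Cx3cl1: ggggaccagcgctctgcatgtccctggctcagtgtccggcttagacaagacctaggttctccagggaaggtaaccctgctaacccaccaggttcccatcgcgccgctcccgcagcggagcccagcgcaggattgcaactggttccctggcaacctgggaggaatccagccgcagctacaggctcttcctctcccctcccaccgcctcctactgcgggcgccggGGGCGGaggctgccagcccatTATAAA
Cxcl10: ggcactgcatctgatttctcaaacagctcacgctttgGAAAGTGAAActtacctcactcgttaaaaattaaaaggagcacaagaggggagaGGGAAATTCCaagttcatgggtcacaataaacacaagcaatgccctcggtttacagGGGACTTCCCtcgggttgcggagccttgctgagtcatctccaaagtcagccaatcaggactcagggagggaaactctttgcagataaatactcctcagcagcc
The window of Xcl1 held none of the motifs and that of Ccl28 held 1 GC box. The window of Cx3cl1 held 1 GC box and 1 TATA box, and that of Cxcl10 held 1 interferon-response element and 2 NF-kB matches.

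A promoter sequence was found for 38 of the 51 genes, in 42 windows. The NF-kB consensus was in 8 of these windows (19.0%), against 3.90% of all 32851 windows, and the genes were Ccl9, Ccl20, Cxcl1, Cxcl2, Cxcl3, Cxcl10, Ccr3 and Ccr6. TATAAA was in 12 windows (28.6%, against 12.4% of all) and the interferon-response element in 3 (7.14%, against 2.98%), those of Ccl19, Cxcl10 and Cxcl14. GGGCGG was in 7 windows (16.7%), below its share of 32.7% in all windows. A match is a string of letters and not a measured binding site. Of the 8 genes with an NF-kB match, 4 (Ccl20, Cxcl2, Cxcl3 and Ccr6) were measured on neither array.

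Ccl28 (NM_020279), a chemokine of mucosal epithelia that binds Ccr10 and Ccr3, had a signal of 33.1 ± 5.66 in C and 67.9 ± 8.08 in CMS. The CMS signal was 2.05-fold higher, a log2 ratio of 1.04 ± 0.30. It stood just past the 2-fold limit. The ratio was below 2-fold without scaling (log2 0.86, where the median of all gene names was -0.20). The ratio was also below 2-fold after normexp background correction, which adds a constant to every spot (log2 0.25). For its receptors, Ccr10 had 37.0 ± 5.57 and 30.0 ± 5.14 (log2 -0.31 ± 0.33), and Ccr3 had 27.1 ± 5.23 and 25.6 ± 5.20 (log2 -0.08 ± 0.40), both differences within the scanner error. The 71 spots within 5 rows and columns of the Ccl28 spot had a median log2 ratio of -0.03.

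Xcl1 (NM_008510), or lymphotactin, is released by activated T and NK cells and attracts the dendritic cells that carry Xcr1. Its signal was 42.0 ± 5.93 in C and 4.18 ± 4.19, not well above background, in CMS. The C signal was at least 2.38-fold higher (log2 -1.25 as a bound, CMS over C). Around its spot, 79 spots had a median log2 ratio of -0.04. Xcr1 was measured in neither pool (4.79 and 4.90). Xcl1 rested on a single spot, and after normexp its log2 ratio was -0.40.

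Of 10 marker genes of T and NK cells, 4 were measured on both arrays, with log2 ratios of 0.10 (Cd3e), -0.00 (Nkg7), -0.15 (Cd4) and -0.19 (Lck). The list's summed signal was 10041 in C and 9456 in CMS, of which Cd4 gave 6290 and 5678. Cd3d, Cd3g, Cd2, Cd8a and Klrb1c were measured on neither array. The tenth, Gzmb, was measured in the C pool only, with a signal of 27.2 ± 5.31 against 6.21 ± 4.42, at least 1.55-fold higher in the C pool. The part of lymphocytes in the Xcl1 difference was not tested.

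**Figure D2:**
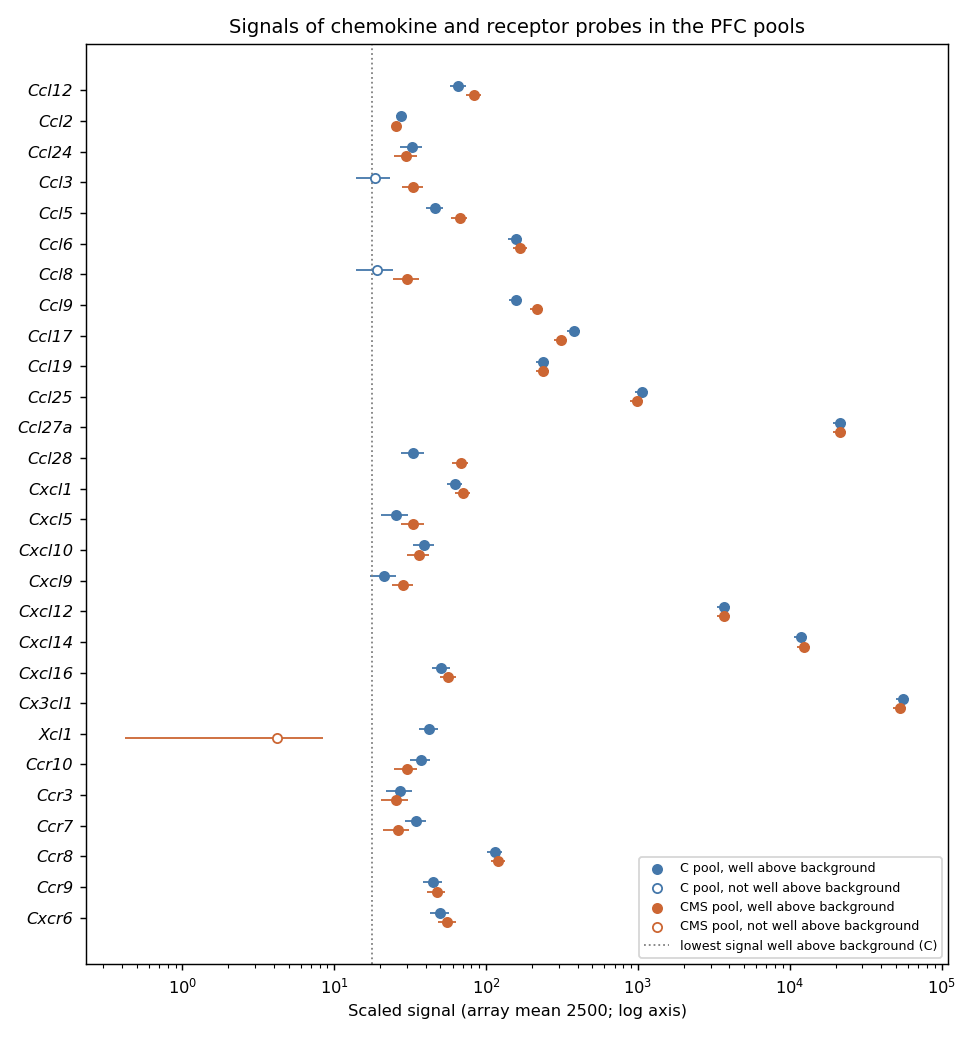
Scaled signal (log axis, array mean 2500) of the 28 genes measured on at least one of the arrays, in the C pool (blue) and the CMS pool (orange), with bars for the scanner error; open symbols are not well above background, the dotted line is the dimmest signal that counted as measured in the C pool, and the bar of Xcl1 in the CMS pool is drawn short because its error is as large as its signal. Most pairs overlap, Ccl28 is shifted to the right in the CMS pool, and Xcl1 falls below the dotted line there.

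The inflammatory CC ligands recruit monocytes, eosinophils and T cells. Of 12 such genes 6 were measured on both arrays, none beyond 2-fold, with a median log2 ratio of 0.22 and a range from -0.13 to 0.53, and 4 of the 6 were above 0. Without scaling their median was 0.05 and 3 were above 0, where the median of all gene names was -0.20. A further 2, Ccl3 and Ccl8, had a ratio because they were measured in the CMS pool only, and are left out of these counts.

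Ccl3 (MIP-1α), a ligand of Ccr1 that attracts myeloid cells, was measured in the CMS pool only. Its signal was 18.5 ± 4.74 in C and 33.2 ± 5.32 in CMS, 1.79-fold higher. Ccl8, a ligand of Ccr8 in the mouse, likewise had 19.0 ± 5.22 and 30.3 ± 5.76, 1.59-fold higher. Neither ratio is a bound. Both genes thus lay near the limit of measurement in the C pool, where neither was well above background, and under normexp their log2 ratios were 0.21 and 0.15.

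Ccl5 (RANTES), which attracts T cells, had 46.1 ± 6.11 in C and 66.8 ± 7.75 in CMS (log2 0.53 ± 0.25). Ccl9, a myeloid chemokine found in rodents, had 157 ± 16.2 and 215 ± 21.8 (log2 0.45 ± 0.21). Ccl12 (MCP-5), a ligand of Ccr2, had 65.5 ± 7.97 and 82.9 ± 9.47 (log2 0.34 ± 0.24). These 3 were higher in the CMS pool by more than their own scanner error, and Ccl5 and Ccl9 by more than 2 errors. Under normexp the log2 ratio of Ccl5 was 0.23.

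Ccl6, a relative of Ccl9, had 156 ± 16.3 and 167 ± 17.3 (log2 0.10 ± 0.21). Ccl24 (eotaxin-2), which acts on eosinophils through Ccr3, had 32.4 ± 5.36 and 29.7 ± 5.20 (log2 -0.13 ± 0.35). Neither differed by more than its scanner error. Ccl4, Ccl7, Ccl11 and Ccl26 were not measured on either array. Ccl4 (MIP-1β) lay close to the limit in both pools, at 17.5 and 20.1, and Ccl7 at 5.02 and 11.1.

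Ccl2 (MCP-1), the main ligand that draws Ccr2-bearing monocytes, was the only gene of the family with repeated spots of its probe, 10 on each array. After outlier spots were left out, 8 spots in the C pool ranged from 24.8 to 35.1 (mean 27.4, SD 3.70) and 9 spots in the CMS pool from 19.3 to 29.8 (mean 25.5, SD 3.81), a log2 ratio of the means of -0.11 ± 0.13. The ranges of both arrays thus overlapped from 24.8 to 29.8. At the 7 positions used on both arrays, 5 were higher and 2 lower in the CMS pool, with log2 ratios from -0.73 to 0.19 (mean -0.06, SD 0.35 between spots). The spread of these spots shows how far a single dim spot may stray within 1 pair of arrays. Over 65 probes with a mean signal below 100 and at least 3 spots well above background on both arrays, the SD of log2 ratios between those spots was 0.26. The SD of 0.35 for Ccl2 includes CMS spots of 19.3 and 21.2 that were not well above background, so it is not directly comparable.

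**Figure D3:**
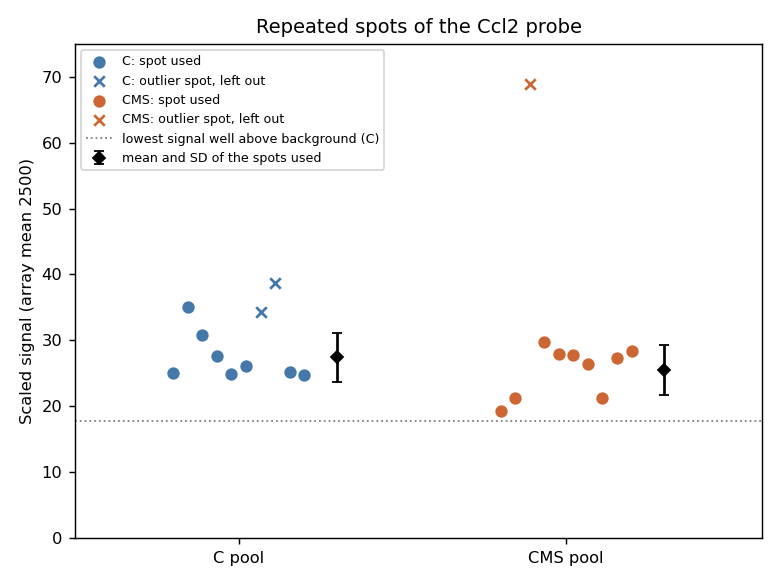
Scaled signal (array mean 2500) of the 10 spots of the Ccl2 probe in the C pool (blue) and the CMS pool (orange), with crosses for outlier spots that were left out, and the mean and SD of the spots used in black. The spots overlap between the pools, at 24.8 to 35.1 in C and 19.3 to 29.8 in CMS.

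The genes Ccl5, Ccl9, Ccl6, Ccl3 and Ccl4 follow each other on the same chromosome in RefSeq, at most 5 protein-coding genes apart. The 3 of them measured on both arrays had log2 ratios of 0.53 (Ccl5), 0.45 (Ccl9) and 0.10 (Ccl6). Without scaling that of Ccl6 was -0.08, where the median of all gene names was -0.20. In the neighbouring group of Ccl2, Ccl7, Ccl11, Ccl12, Ccl8 and Ccl1, 2 were measured on both arrays, with log2 ratios of -0.11 (Ccl2) and 0.34 (Ccl12). In the group of Ccl22, Cx3cl1 and Ccl17 both genes with a ratio lay below 0, at -0.06 and -0.29.

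Among markers of the cells that make or follow these ligands, microglia had a median log2 ratio of 0.05 over 10 genes, none beyond 2-fold, with a summed signal of 218541 in C and 228461 in CMS. Border macrophages and monocytes had a median of -0.16 over 6 genes, with Cd163 unmeasured and a summed signal of 1074 and 968. Of 9 neutrophil markers 5 were measured on both arrays, with a median of 0.58 and 1 beyond 2-fold, from S100a9 at 1.18 to Elane at -0.29. Ngp and Ltf were measured in the CMS pool only, Mmp8 and Retnlg in neither, and the summed signal was 3574 and 3804. Elane alone gave 2798 of that sum in C and 2291 in CMS. The part of these cells in the differences of the CC ligands was not tested.

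Genes of another organ stood higher in the CMS pool. Of 12 hepatocyte markers 11 were more than 2-fold higher, with a median log2 ratio of 3.0 and a summed signal of 6912 in C and 60872 in CMS. Markers of Kupffer cells, the liver's macrophages, had a median of 0.35 over the 2 genes measured on both arrays (Timd4 unmeasured, sums of 314 and 455). Clec4f (6.16 in C, 39.2 in CMS) and Vsig4 (5.70 and 35.3) of that list were measured in the CMS pool only. They were at least 2.20-fold and at least 1.98-fold higher. Markers of liver sinusoidal endothelium had a median of 1.09 over 3 genes (2 beyond 2-fold, Oit3 measured in the CMS pool only, Dnase1l3 unmeasured, sums of 622 and 749). The part of liver cells in the ratios of Ccl28, Ccl3, Ccl5, Ccl8 and Ccl9 was not tested. For the labelled tissue, 6 of 6 markers of cortical excitatory neurons were measured in both pools, with a median log2 ratio of 0.04.

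The homeostatic and barrier CC ligands place lymphocytes in lymphoid organs, skin and gut. Of 8 genes 5 had a ratio, and apart from Ccl28 they differed little. Ccl17 (TARC), a ligand of Ccr4 made by dendritic cells, had 379 ± 38.2 in C and 309.7 ± 31.2 in CMS (log2 -0.29 ± 0.21), lower by more than its scanner error. Ccl19, a ligand of Ccr7, had 235 and 236, and its 3 probes gave log2 ratios of 0.00, -0.09 and -0.05. Ccl25, the thymic and gut ligand of Ccr9, had 1062 and 977, with log2 ratios of -0.12 and -0.17 from 2 probes.

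Ccl27a, a chemokine of the skin, had bright signals of 21420 ± 2142 and 21272 ± 2127, and its 3 probes gave -0.01, 0.13 and 0.02. It has near-identical copies in the genome, as Ccl19 has, and which copy the probes read was not tested. Ccl1, Ccl20 and Ccl22 were not measured in either pool.

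The ELR CXC ligands attract neutrophils through Cxcr2. Cxcl1 had 62.4 ± 7.28 in C and 70.0 ± 7.92 in CMS, and Cxcl5 had 25.5 ± 5.28 and 33.1 ± 5.72. Both differences, log2 0.17 ± 0.23 and 0.38 ± 0.39, were within the scanner error. Cxcl2, Cxcl3 and Cxcl15 were not measured, nor were the receptors Cxcr1 and Cxcr2. No member of this axis was beyond 2-fold.

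The interferon-inducible ligands Cxcl9 and Cxcl10 attract T cells that carry Cxcr3. Cxcl10 had 39.0 ± 6.24 in C and 36.2 ± 6.02 in CMS (log2 -0.10 ± 0.33). Cxcl9 had 21.3 ± 4.22 and 28.4 ± 4.58 (log2 0.42 ± 0.37), and its second probe was not well above background in either pool. The ratio of Cxcl10 was thus within its scanner error and that of Cxcl9 was just beyond it, near the limit of measurement. Cxcr3 was listed at 21.1 and 21.0 and did not count as measured.

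The measured homeostatic CXC ligands and the CX3C ligand each differed by less than their scanner error. Fractalkine (Cx3cl1, NM_009142), a neuronal ligand that acts both on the membrane and after shedding, had 55367 ± 5537 in C and 53051 ± 5305 in CMS (log2 -0.06 ± 0.20). Cxcl12 (SDF-1) had 3657 ± 366 and 3653 ± 365, and its 2 probes gave log2 ratios of -0.00 and -0.10. Cxcl14, a chemokine that interneurons of the cortex make, had 11837 ± 1184 and 12355 ± 1235 (log2 0.06 ± 0.20). Cxcl16, a membrane-bound ligand of Cxcr6, had 50.7 ± 6.80 and 56.4 ± 7.14 (log2 0.16 ± 0.27). Cxcl13 and Cxcl17 were not measured.

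**Figure D4:**
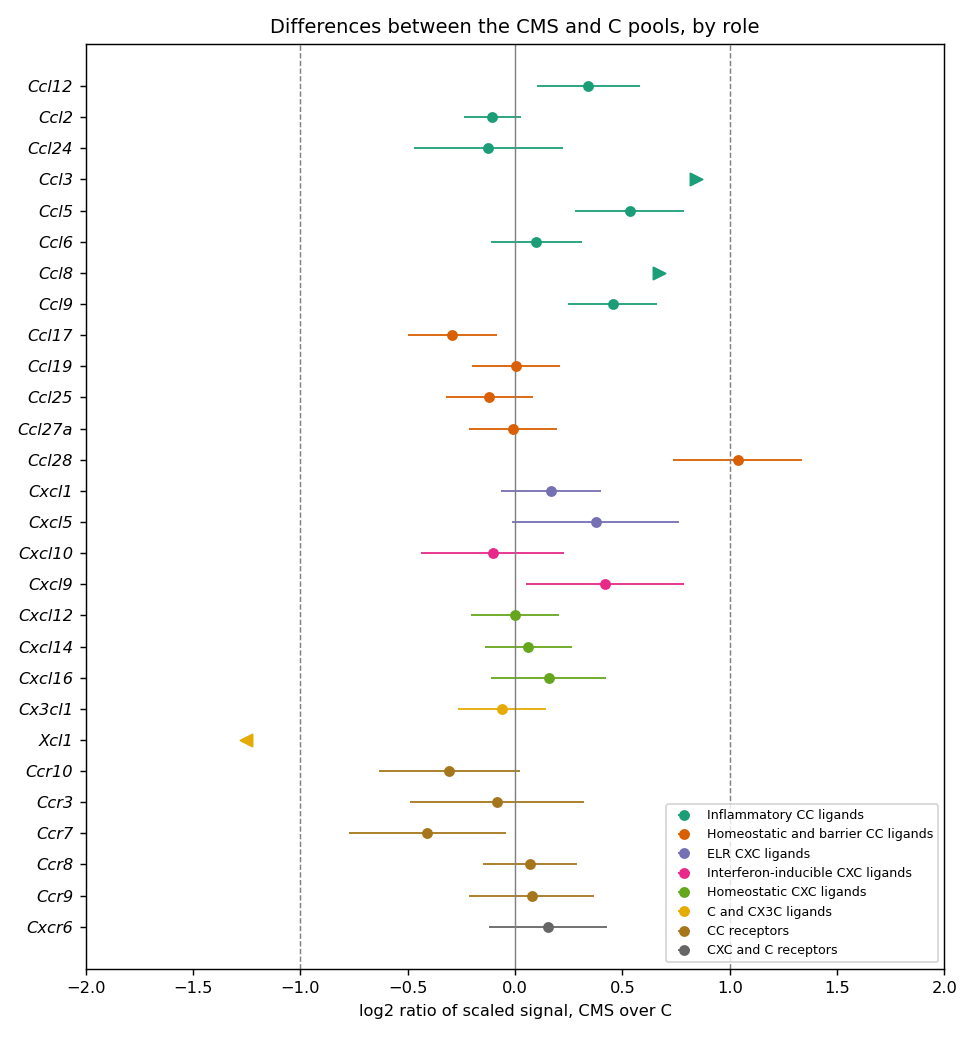
Log2 ratio of scaled signal, CMS over C, of the 28 genes, colored by role, with bars for the scanner error within arrays. Triangles mark genes measured in only 1 pool, of which Xcl1 is a bound, and dashed lines mark 2-fold. Ccl28 is to the right of the upper line and Xcl1 to the left of the lower one. Of the 6 inflammatory CC ligands measured on both arrays 4 lie above 0 (3 without scaling, where the median of all gene names was -0.20).

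Of 17 receptors 6 were measured in both pools, with log2 ratios from -0.41 to 0.15 and a median of -0.01 (-0.18 without scaling), and none was beyond 2-fold. Ccr7, which guides lymphocytes and dendritic cells to lymph nodes, had 34.6 ± 5.58 in C and 26.1 ± 5.10 in CMS (log2 -0.41 ± 0.37), lower by just more than its scanner error. Ccr8, a receptor of skin-homing and regulatory T cells, had 114 ± 12.3 and 119.6 ± 12.8 (log2 0.07 ± 0.22). Its second probe, at 4.26 and 4.28, was not well above background in either pool.

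Ccr9, the receptor of Ccl25, had 44.6 ± 6.51 and 47.1 ± 6.57 (log2 0.08 ± 0.29). Cxcr6, the receptor of Cxcl16, had 49.9 ± 6.96 and 55.5 ± 7.31 (log2 0.15 ± 0.28), and its second probe gave -0.05. The receptors with a difference inside their scanner error were thus 5 of the 6. Ccr1, Ccr1l1, Ccr2, Ccr4, Ccr6, Cxcr1, Cxcr2, Cxcr3, Cxcr4, Cxcr5 and Xcr1 were not measured in either pool. Among these, Ccr1 was listed at 4.23 and 17.8, Cxcr4, the main receptor of Cxcl12, at 7.58 and 18.5, and Ccr6 at 14.9 and 4.53. None of these signals was well above background, so no ratio was taken. The 23 unmeasured genes of the family had signals from 3.54 to 21.1 (median 4.36) in the C pool and from 3.50 to 21.0 (median 4.53) in the CMS pool.

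Counted over all 25 genes measured on both arrays, 18 differed by less than their own scanner error. Beyond that error 5 were higher in the CMS pool (Ccl5, Ccl9, Ccl12, Ccl28 and Cxcl9) and 2 were lower (Ccl17 and Ccr7). Beyond 2 errors 3 were higher (Ccl5, Ccl9 and Ccl28) and none was lower, where 2.63% of the 25442 gene names measured on both arrays were higher by as much and 1.83% were lower. For the 10 genes with a mean signal of 100 or more, log2 ratios spanned -0.29 to 0.45, and their median was 0.00. The 15 dimmer genes measured on both arrays had a median of 0.15, and -0.02 without scaling.

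Ligands and receptors were set side by side in 33 known pairs. Both partners were measured in both pools in 10 pairs, the ligand but not the receptor in 11, the receptor but not the ligand in 3, and neither in 6. In the other 3 pairs (Ccl3 and Ccr1, Ccl8 and Ccr8, Xcl1 and Xcr1) the ligand was measured in 1 pool only. The pairs with both partners included fractalkine and its receptor. Cx3cr1, the defining chemokine receptor of microglia, had 6232 ± 623 in C and 6971 ± 697 in CMS (log2 0.16 ± 0.20). Cxcl12 was measured with its scavenging receptor Ackr3 (564 ± 56.6 and 466 ± 46.9, log2 -0.27 ± 0.20) but not with Cxcr4. Ccl2 and Ccl12 were measured without their receptor Ccr2, and Ccl6 and Ccl9 without Ccr1.

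Of 8 further chemokine genes outside the symbol rule, 6 were measured on both arrays, none beyond 2-fold, with a median log2 ratio of -0.03, and Ackr4 was unmeasured. Pf4 (platelet factor 4) had 479 and 420, and Ppbp, another platelet chemokine, had 20.4 ± 5.33 and 40.2 ± 6.34. Ppbp was measured in the CMS pool only and was 1.97-fold higher there, which is not a bound. Under normexp its log2 ratio was 0.23, against 0.98 here. Of 7 platelet markers 3 were measured on both arrays, with a median of 0.08, Ppbp and Gp5 were measured in the CMS pool only, Itga2b and Gp1ba were unmeasured, and the list's summed signal was 362 in C and 417 in CMS. The part of platelets was not tested.

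Of 18 genes that couple chemokine receptors to the cell or shut them off, 15 were measured on both arrays, with a median of -0.04 and none beyond 2-fold. The gene beyond 2-fold was Rgs1, a regulator that ends G protein signals in leukocytes, which was measured in the CMS pool only, with 3.66 ± 3.67 in C and 72.0 ± 8.06 in CMS, a bound of 4.05-fold, and under normexp its log2 ratio was 1.08, against 2.02 here. The inducing cytokines and their targets had a median of -0.12 over the 13 of 18 genes measured on both arrays, none beyond 2-fold, and Tnf, Il1a, Il6 and Ifng were not measured in either pool. Within that list Nfkbiz, an atypical regulator of NF-κB, had 72.5 ± 8.32 and 44.1 ± 5.95 (log2 -0.72 ± 0.26). Genes that shed, cleave or present chemokines had a median of 0.12 over 9 of 10 genes, none beyond 2-fold, with Mmp9 unmeasured. Adam10, which sheds fractalkine and Cxcl16, had 2769 and 3012 (log2 0.12 ± 0.20).

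**Figure D5:**
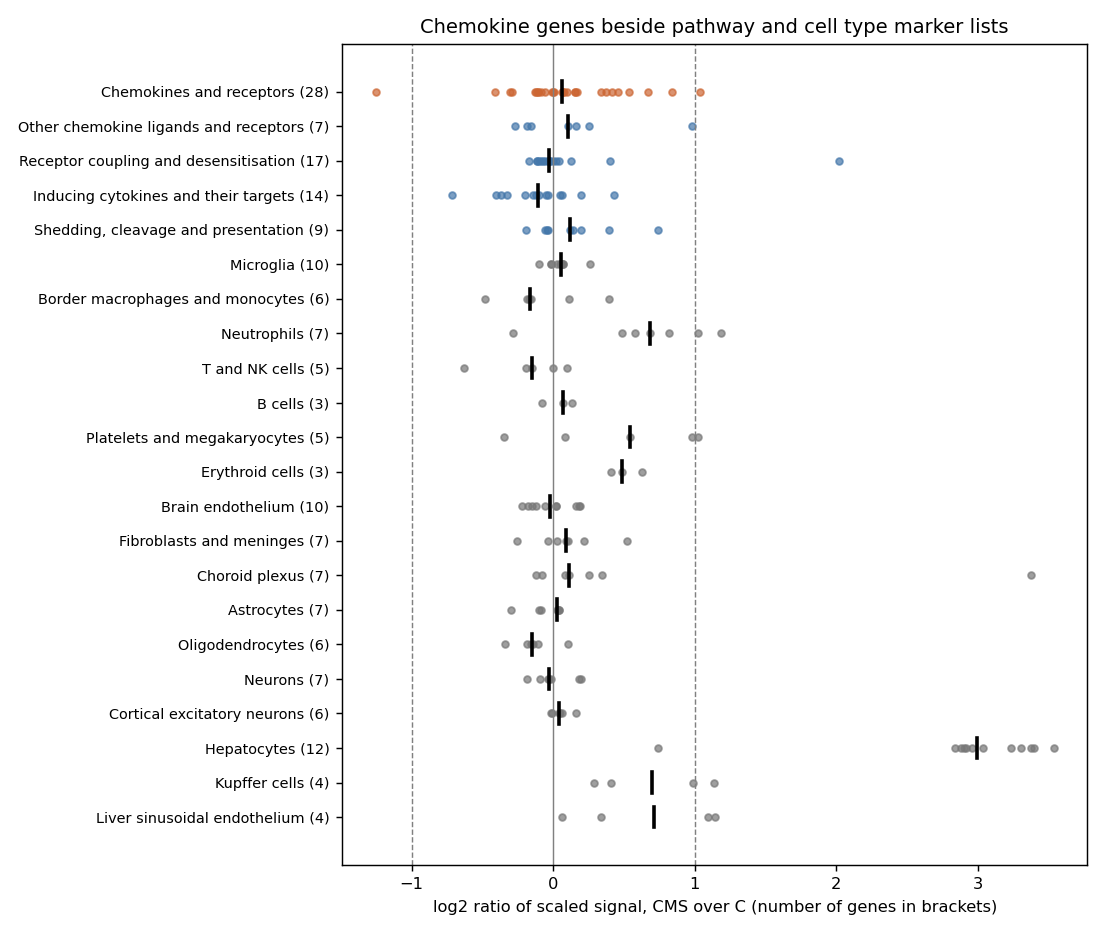
Log2 ratios of scaled signal, CMS over C, for the chemokine and receptor genes (orange), the pathway lists (blue) and the cell type marker lists (grey), with the number of genes with a ratio in brackets, a black tick at each median and dashed lines at 2-fold. The ticks include genes measured in only 1 pool; the chemokine genes have their tick at 0.07, the microglia list at 0.05 and the hepatocyte list at 3.0.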

How the data were processed

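RNA of 1 pool per group was measured on 1 one-color Agilent array each, both on 1 slide. As deposited by the authors, the values are processed intensities of the scanner software (Agilent Feature Extraction 10.10.1.1, per the submitters' processing notes), background-subtracted and on a linear scale, for 59305 spots of 55674 probes on each array, and a table of scaled intensities. No spot was saturated, and 65.2% of spots of the C array and 65.9% of the CMS array were well above background. The number of arrays limits the precision.

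Here outlier spots (130 and 133) were left out, spots of a probe were averaged, and both arrays were brought to a mean of 2500, the average in the methods. Accessions were named through RefSeq (GRCm38.p6) for 30740 spots. A gene was represented by its probe of highest mean log2 signal. Every other member is accounted for by name, and values are given for those beyond 2-fold, those measured on 1 array and those measured on both. Genes of the pathway lists are named where beyond 2-fold or as partners of a member. Pf4, Ppbp, Nfkbiz, Il1b, Icam1, Adam10, S100a9, Elane, Clec4f, Vsig4, Oit3 and Ttr were named after their values were seen. Of the genes that met the symbol rule, 1 is not reported here and was left out of all member counts, lists of pairs and plots. The members and lists were chosen with earlier results of these data known. Besides the lists in the text, the B cell markers had a median log2 ratio of 0.07, erythroid cells 0.49, brain endothelium -0.02, fibroblasts 0.09, choroid plexus 0.11 (0.10 over genes measured on both arrays), astrocytes 0.03, oligodendrocytes -0.15 and neurons -0.03. In the choroid plexus list 1 gene was beyond 2-fold, Ttr, with 453 ± 45.5 in C and 4711 ± 471 in CMS (log2 3.38 ± 0.20). The summed signal of that list was 1338 in C and 5607 in CMS.

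Alternatives were other scalings (75th percentile, median, trimmed mean, none), quantile normalization, normexp with an offset of 50 on median spot intensities followed by quantile normalization, the deposited table, other rules for dim probes and outlier spots, the mean of all probes, other probes of a gene (added after the data were seen) and a threshold of 1.5-fold. Versions were R 4.3.3, limma 3.58.1, Python 3.11.15, numpy 2.4.6 and pandas 2.3.3.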

Additional observations from a re-analysis of the deposited data

How the results depend on the processing

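No paired analysis was possible because each group had 1 array, and for the same reason no array could be left out and no slide effect fitted. Dim probes gave the least certain ratios. The number of members more than 2-fold higher was 1, but 0 without scaling, 0 under normexp and 4 with no filter on dim probes (Ccl28 with Ccl7, Ccr1 and Cxcr4, from signals below the limit of measurement). At a threshold of 1.5-fold the number was 3, namely Ccl28, Ccl3 and Ccl8. Ccl3 and Ccl8 have a ratio only because they were measured in the CMS pool. The share of all gene names at 1.5-fold is not given, so this count cannot be set against it. The number below 0.5 times was 1, but 0 under normexp, 0 among genes measured on both arrays, and 2 with no filter (Xcl1 and Ccr6). Normexp adds an offset of 50 to every spot, which draws ratios of dim probes towards 0 by its construction; over all gene names it left 265 higher and 38 lower, where no filter gave 1493 and 1069, no bound for dim probes 767 and 309, only probes measured on both arrays 294 and 44, and no scaling 427 and 249. Ccl28 had a log2 ratio of 1.0 to 1.06 under the other scalings, quantile normalization and the deposited table. Xcl1 had -1.23 to -1.29 there, -1.43 without scaling and -3.33 with no bound.

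List medians here are over genes measured on either array: members 0.07, other chemokine genes 0.10, receptor coupling -0.03, inducing cytokines -0.11, neutrophils 0.68, T and NK cells -0.15, platelets 0.55, Kupffer cells 0.70 and liver sinusoidal endothelium 0.71. Without scaling the median of all gene names moved from -0.03 to -0.20, and the medians of the lists moved with it: members -0.11, ligands -0.094, receptors -0.18, other chemokine genes -0.072, receptor coupling -0.21, inducing cytokines -0.28, shedding and presentation -0.052, microglia -0.12, border macrophages -0.34, neutrophils 0.51, T and NK cells -0.32, B cells -0.10, platelets 0.37, erythroid cells 0.31, brain endothelium -0.19, fibroblasts -0.083, choroid plexus -0.060, astrocytes -0.15, oligodendrocytes -0.33, neurons -0.21, cortical excitatory neurons -0.13, hepatocytes 2.82, Kupffer cells 0.52 and liver sinusoidal endothelium 0.54. Under normexp the medians were 0.34 for neutrophils, 0.23 for platelets, 2.77 for hepatocytes, 0.28 for Kupffer cells and 0.34 for sinusoidal endothelium. With no bound they were 0.82 for neutrophils, 1.52 for Kupffer cells and 1.12 for sinusoidal endothelium. Over probes measured on both arrays they were 0.080 for platelets, 0.35 for Kupffer cells and 1.09 for sinusoidal endothelium, and with no filter 0.82 for neutrophils, -0.0029 for T and NK cells, 0.080 for platelets, 0.84 for Kupffer cells and 1.09 for sinusoidal endothelium. The other 271 list and count values, and 367 single gene values, moved by less than the error set for them, while 19 single gene values moved by more, and no called gene changed sign.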
